A study of Homo sapiens with 10 samples.

Results

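The 8 genes described here mark epithelial cells of the lung or build what those cells secrete: FOXA1, FOXA2 and GATA6 (transcription factors), ABCA3, LPCAT1 and NAPSA (surfactant lipid and protein handling) and MUC1 and EPCAM (surface glycoproteins). They were chosen by symbol from a table of read counts with 25538 genes, in which each of the 8 had 1 row, and the rule itself uses no measured value. All 8 were among the 19433 genes that passed the filter on low counts. In the GFP libraries, 7 of the 8 were at or above the filter's level of 0.832 CPM (counts per 1000000 counts of the library) in 6 of 6 libraries and NAPSA in 5 of 6, so none passed only through the libraries of the other construct.

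The study used RNA-seq to ask what excess EP300, a histone acetyltransferase and coactivator, does to gene expression before and shortly after a glucocorticoid, in A549, an established lung adenocarcinoma cell line. Cells received 1 ug of a vector for an EP300-GFP fusion (P300) or for GFP alone, grew for 48 h in medium with charcoal-stripped serum, and were then given 100 nM dexamethasone (Dex) or its solvent ethanol (EtOH) for 1 h. GFP-positive cells were sorted after fixation, so both constructs share transfection, hormone-poor medium, fixation and sorting, and the P300 cells express EP300 on top of their own. The groups were P300 Dex (2 libraries), P300 EtOH (2), GFP Dex (3) and GFP EtOH (3), and the labels number the libraries 1 to 3 without saying whether a number is a separate culture. The p-values below therefore speak of the spread among the libraries at hand, which may be technical.

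In the developing and adult lung, FOXA1, FOXA2 and GATA6 bind regulatory DNA of surfactant and secretory genes and act together with the factor NKX2-1. Alveolar type 2 cells make phosphatidylcholine for surfactant, which LPCAT1 remodels into its saturated form and ABCA3 pumps into lamellar bodies, while the aspartic protease NAPSA processes surfactant protein B. MUC1 is a transmembrane mucin of the apical surface and EPCAM an adhesion molecule of most simple epithelia. EP300 is recruited to enhancers, and the ligand-bound glucocorticoid receptor is one of the factors that bring it there.

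The upstream sequences of 3 genes are given because these genes gave the contrasts described below: LPCAT1 lay above GFP in every P300 library, ABCA3 lay below GFP in 3 of the 4, and MUC1 followed the replicate number of a library. Of the 8 genes, 6 were matched in the promoter table used here, from RefSeq (GRCh38.p14), and upstream sequences of EPCAM and FOXA2 were not used here. Each stretch is the 250 bases before the annotated start, 5′ to 3′ on the strand of the gene, all 3 on the minus strand, at chr5:1523961-1524210 for LPCAT1, chr16:2340729-2340978 for ABCA3 and chr1:155192916-155193165 for MUC1. Capitals mark, on either strand, matches to the GC box GGGCGG, the TATA box TATAAA and the sequence AGAACA, 1 arm of the glucocorticoid receptor's palindromic site.
LPCAT1: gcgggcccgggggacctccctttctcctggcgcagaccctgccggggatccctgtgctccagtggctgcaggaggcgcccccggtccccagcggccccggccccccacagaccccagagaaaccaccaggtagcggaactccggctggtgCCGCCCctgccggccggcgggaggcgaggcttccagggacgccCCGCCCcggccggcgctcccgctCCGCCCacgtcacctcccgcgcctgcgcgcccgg
ABCA3: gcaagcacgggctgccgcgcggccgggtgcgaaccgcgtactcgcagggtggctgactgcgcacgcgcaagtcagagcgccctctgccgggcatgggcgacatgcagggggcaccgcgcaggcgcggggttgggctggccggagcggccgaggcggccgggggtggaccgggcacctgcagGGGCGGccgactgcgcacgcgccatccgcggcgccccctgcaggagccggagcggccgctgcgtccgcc
MUC1: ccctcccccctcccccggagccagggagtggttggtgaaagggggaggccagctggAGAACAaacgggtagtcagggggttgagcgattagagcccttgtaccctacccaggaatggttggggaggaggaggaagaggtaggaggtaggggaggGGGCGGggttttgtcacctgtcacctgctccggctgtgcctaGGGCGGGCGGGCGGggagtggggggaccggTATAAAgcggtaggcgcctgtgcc

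LPCAT1 and ABCA3 shared a base composition that MUC1 did not have: 78.8% and 79.2% of their bases were G or C, against 66% for MUC1 and a median of 58% over 35116 RefSeq promoters of the same length. LPCAT1 held 3 matches to the GC box, ABCA3 held 1 and MUC1 held 4, of which 3 overlap each other, and 42.6% of all promoters held at least 1. MUC1 also held a TATA box, found in 10.7% of promoters, and the receptor arm, found in 12.4%. None of the 3 stretches held CCAAT (32% of promoters), the FOXA motif TGTTTNC (15.5%), the GATA motif AGATAA (9.17%), the NKX2 motif CAAGTG (9.5%) or the AP-1 motif TGACTCA (4.2%). A match is a string of letters in this window and was not tested as a binding site.

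The libraries differed in ways that touch these genes. Total counts were 9215550 to 13122367 in 9 libraries and 2278717 in P300 EtOH 2, where 11861 genes were at 0, against 2130 to 5194 in the others. EP300 itself took 28.8% and 2.42% of counts in the P300 Dex libraries and 28.6% and 13.4% in the P300 EtOH libraries, against 0.0271% to 0.0386% in GFP libraries, so number 1 and number 2 of a P300 group carried very different amounts of the construct. FKBP5, a glucocorticoid target, had 32.2 and 129 CPM (here and below scaled by the TMM method) in P300 Dex, against 7.43 and 12.1 in P300 EtOH, and 88.3 to 133 in GFP Dex, against 28.1 to 45.2 in GFP EtOH. Libraries of the same number deviated from their group means together, and number 2 libraries had more ribosomal RNA (0.907% to 5.32% of counts) than the others (0.492% to 0.812%).

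Set against the cell type label, epithelial genes were mixed in level. Over the 10 libraries the epithelial keratins KRT8, KRT18 and KRT7 had 3716 to 12535, 1469 to 5888 and 1076 to 3510 CPM, and the adhesion molecule CDH1 had 86.2 to 303 CPM. The epithelial genes TJP1, ELF3, SPINT2 and KRT19 had means of 460, 291, 229 and 149 CPM. The tight junction gene CLDN7, the transcription factor GRHL2 and the epithelial genes ST14, SPINT1 and RAB25 stayed at or under 2.74, 0.947, 3.26, 3.05 and 0.631 CPM. The surfactant protein genes SFTPB, SFTPC and SFTPD had 0 to 3.79, 0 to 2.63 and 0 to 4.21 CPM, while LAMP3, a lysosomal protein of lamellar bodies, had 39.3 to 107 CPM. NKX2-1 and SFTPA1 had no row under these symbols among the counts, so no level is given for them. Summed CPM of the leukocyte list was 1.34 to 11.9 and of the endothelial list 1.22 to 27.3. The mesenchymal list summed to 1382 to 2104 CPM, with VIM, an intermediate filament protein, at 322 to 925 CPM and FN1, fibronectin, at 466 to 1564 CPM.

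The 8 genes spanned a wide range of levels. Per kilobase of annotated exon, the GFP EtOH means were 22.9 ± 1.17 CPM per kb for LPCAT1, 22.3 ± 4.91 for FOXA2, 10.4 ± 1.54 for ABCA3, 8.82 ± 1.66 for FOXA1, 7.91 ± 5.63 for MUC1, 4.88 ± 0.0362 for GATA6, 0.755 ± 0.462 for EPCAM and 0.377 ± 0.164 for NAPSA (SD, n = 3). LPCAT1 and FOXA2 overlapped each other, as did ABCA3, FOXA1 and MUC1, while GATA6 overlapped MUC1 only. EPCAM and NAPSA overlapped each other and lay below the other 6 genes in every GFP EtOH library. The plot of each gene by library shows these levels for all groups without the length scaling.

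**Figure D1:**
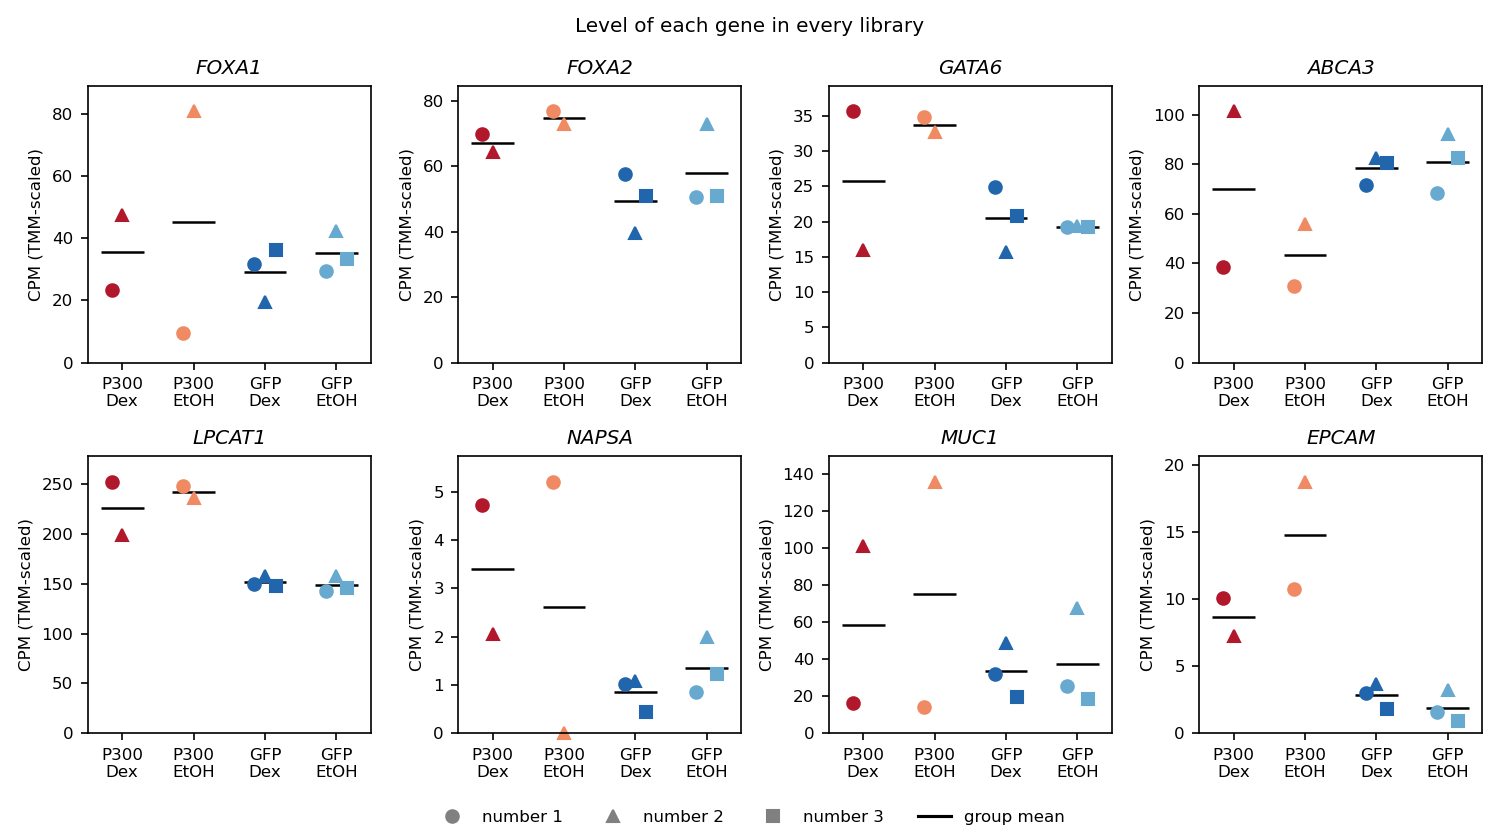
Level of the 8 genes in CPM (vertical axis, linear from 0, TMM-scaled) in each library of the groups P300 Dex, P300 EtOH, GFP Dex and GFP EtOH (horizontal axis). Marker shapes give the replicate number and bars the group mean. EPCAM and LPCAT1 lie higher in all 4 P300 libraries than in all 6 GFP libraries, and the number 2 libraries stand highest in MUC1.

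Among the surface proteins, EPCAM rose in P300 cells and was the only 1 of the 8 genes to pass the test in any comparison. EPCAM had 10.8 and 18.8 CPM in P300 EtOH, against 1.60, 3.19 and 0.918 CPM in GFP EtOH. All P300 values lay above all GFP values, and the higher P300 value came from the shallow library, where it rested on 42 counts. By counting error alone that library had 13.3 to 24.9 EPCAM reads per 1000000 (exact 95% interval), against 2.37 to 4.52 in GFP EtOH 2, the highest of its group.

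EPCAM was 7.65-fold higher in P300 EtOH than in GFP EtOH (log2 fold change 2.93 ± 0.62 SE, interval 2.95 to 19.8 fold, adjusted p 0.0387, edgeR's quasi-likelihood test with Benjamini-Hochberg adjustment over 19433 genes, threshold 0.05). In this comparison 541 genes passed, 2.78% of those tested, with 310 higher (1.6%) and 231 lower (1.19%). Among the 4301 tested genes with a GFP EtOH mean of 1 to 5 CPM, as EPCAM had, 87 (2.02%) were called higher. Bulk counts cannot tell more EPCAM RNA per cell from more sorted cells that carry it.

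The EPCAM call was lost in 9 of 18 alternatives, with the direction kept in each. With only the 5 EtOH libraries in the fit the adjusted p was 0.108 (49 of 17272 genes called, 0.284%). With the replicate number as a block it was 0.308 (276 of 16766 called, 1.65%). That fit also left out GFP EtOH 3, whose number has no P300 library, so the block and the lost library cannot be told apart. With the block among all 10 libraries it was 0.0475 (496 called, 2.55%, all edgeR). Without GFP EtOH 1, 2 or 3 it was 0.162, 0.0916 and 0.168, without GFP Dex 1, 2 or 3 it was 0.0873, 0.0748 and 0.0795, and without P300 EtOH 2 it was 0.0505. The number of genes called was as unsteady: 0 to 5 without any 1 GFP library and 1073 to 4187 without any 1 P300 library.

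In dexamethasone EPCAM had 10.1 and 7.26 CPM in P300 Dex, against 3.03, 3.69 and 1.77 CPM in GFP Dex. The groups did not overlap. The fold was 3.06 (log2 1.62 ± 0.60 SE) and did not pass (adjusted p 0.294, edgeR), in a comparison where 2 of 19433 genes were called (0.0103%) and 2463 (12.7%) had an unadjusted p under 0.05. DESeq2 called 702 genes there (3.61%), with an adjusted p of 0.0877 for EPCAM. The P300 comparisons in ethanol and in dexamethasone share no library, but they share the fit and its estimate of spread.

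MUC1, the mucin, did not follow the construct. MUC1 had 16.0 and 100.9 CPM in P300 Dex, against 31.7, 48.9 and 19.5 CPM in GFP Dex, and 14.0 and 136 CPM in P300 EtOH, against 25.6, 67.7 and 18.7 CPM in GFP EtOH. In both treatments 1 P300 library lay below all GFP libraries and the other above all of them, so the groups overlapped. The 4 number 2 libraries, at 48.9 to 136 CPM, lay above the other 6, at 14.0 to 31.7 CPM.

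Within number 1 the log2 difference of P300 from GFP in MUC1 was -0.98 in dexamethasone and -0.86 in ethanol, and within number 2 it was 1.04 and 1.00. The fitted log2 fold changes of 0.81 ± 0.90 and 0.98 ± 0.91 (SE) did not pass (adjusted p 0.772 and 0.527, edgeR). Of all 19433 genes tested, 910 (4.68%) lay higher in all 4 number 2 libraries than in the other 6. Over the fixed lists of epithelial and other marker genes this held for 20 of 148 tested genes (13.5%), among them CDH1, KRT18, MUC5AC, MUC5B, MUC16, SPDEF and HNF4A, named after their values were seen. These genes and the ribosomal RNA share moved with the number, and their part in the MUC1 values was not tested.

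**Figure D2:**
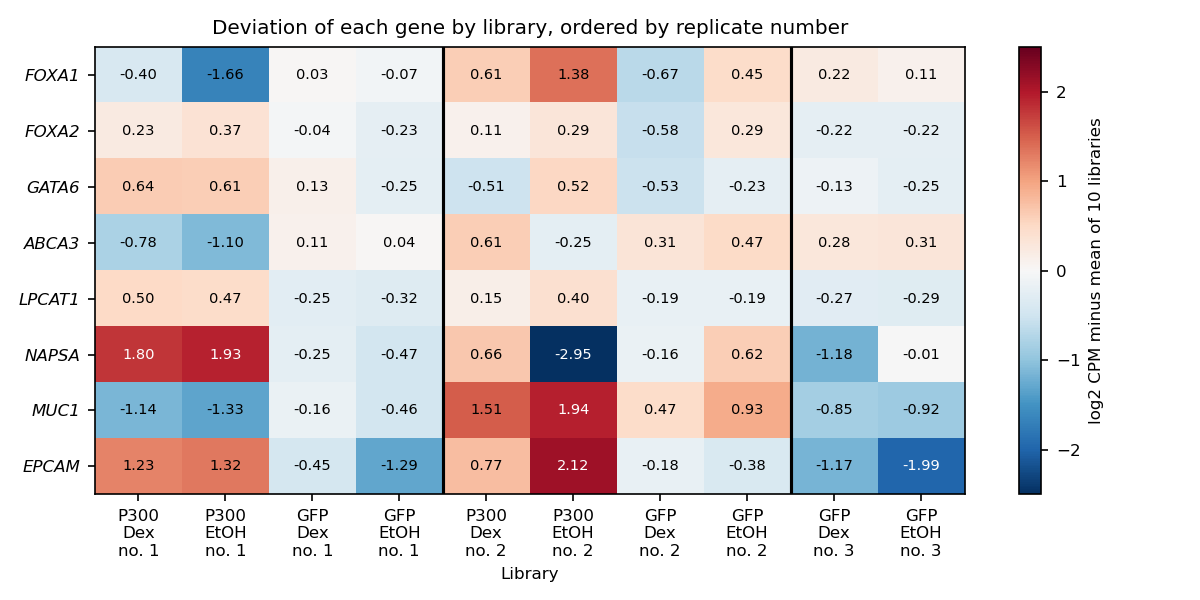
Deviation of each gene's log2 CPM from its mean over 10 libraries (colour scale and printed value, log2 units), with genes in rows and libraries in columns grouped by replicate number and, within a number, P300 before GFP. The lowest NAPSA cell is a count of 0, with a value set by the prior count of 2. MUC1 is above its mean in the 4 number 2 libraries and below it in the other 6, while EPCAM and LPCAT1 are above theirs in the P300 columns of both numbers.

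Among the surfactant lipid genes, LPCAT1 lay higher and ABCA3 mostly lower in P300 cells, and neither passed the test. LPCAT1, the acyltransferase, had 248 and 237 CPM in P300 EtOH, against 143, 157 and 146 CPM in GFP EtOH. The groups did not overlap and each was narrow, with means of 242 ± 8.01 CPM in P300 EtOH and 149 ± 7.60 CPM in GFP EtOH (SD, n = 2 and 3). The fold was 1.63 (log2 0.70 ± 0.23 SE, interval 1.15 to 2.30 fold, adjusted p 0.0956, edgeR), and DESeq2 on the same counts called it (log2 0.84, adjusted p 0.00510), calling 2409 genes (12.4%) in all.

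In dexamethasone LPCAT1 had 253 and 199 CPM in P300 Dex, against 150, 158 and 148 CPM in GFP Dex. These groups did not overlap either. The fold was 1.49 (interval 1.05 to 2.10 fold, adjusted p 0.326, edgeR). LPCAT1 had the smallest variation between libraries of the 8 genes, with a fitted biological coefficient of variation of 22.2%, against a median of 44.5% over all tested genes.

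ABCA3, the lamellar body transporter, had 30.9 and 55.9 CPM in P300 EtOH, against 68.2, 92.2 and 82.5 CPM in GFP EtOH. Both P300 EtOH values lay below all GFP EtOH values. The log2 fold change was -0.91 ± 0.42 (SE) with an interval of 0.282 to 1.00 fold and an adjusted p of 0.194 (edgeR). In dexamethasone the picture split by number, with 38.5 and 101.4 CPM in P300 Dex, against 71.6, 82.6 and 80.6 CPM in GFP Dex. P300 Dex 1 lay below every GFP Dex library and P300 Dex 2 above every one, and the fitted log2 fold change was -0.16 ± 0.40 (adjusted p 0.915, edgeR).

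NAPSA, the protease, was at the edge of detection. NAPSA had 45 and 19 counts in P300 Dex (4.73 and 2.06 CPM), against 13, 15 and 6 counts in GFP Dex (1.01, 1.08 and 0.442 CPM). NAPSA had 47 and 0 counts in P300 EtOH (5.21 CPM, and a limit of 1.34 CPM for a count of 0 at that depth), against 11, 25 and 16 counts in GFP EtOH (0.841, 1.99 and 1.22 CPM). The dexamethasone groups did not overlap, while in ethanol 1 P300 library lay above all GFP values and the other had no read, at a depth that allows a level above 2 of the 3 GFP values.

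For NAPSA the fitted log2 fold changes of 1.99 ± 1.02 in dexamethasone and 1.09 ± 1.02 in ethanol (SE) did not pass (adjusted p 0.460 and 0.531, edgeR). Reads of NAPSA can be shared with its near-identical pseudogene NAPSB, so its counts are uncertain.

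Of the transcription factors, FOXA2 and GATA6 lay higher in the P300 EtOH libraries than in GFP EtOH, FOXA1 lay on both sides, and none passed the test. FOXA2 had 76.9 and 72.9 CPM in P300 EtOH, against 50.5, 72.8 and 50.8 CPM in GFP EtOH, and 70.0 and 64.3 CPM in P300 Dex, against 57.7, 39.8 and 51.0 CPM in GFP Dex. The groups did not overlap in either treatment, though in ethanol the lower P300 value and the highest GFP value, both of number 2, were 72.9 and 72.8 CPM. The log2 fold changes were 0.37 ± 0.29 in ethanol and 0.44 ± 0.29 in dexamethasone (SE, adjusted p 0.451 and 0.575, edgeR).

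GATA6 had 34.8 and 32.6 CPM in P300 EtOH, against 19.2, 19.4 and 19.2 CPM in GFP EtOH. Both P300 libraries lay about equally far above the GFP group (log2 0.81 ± 0.39 SE, fold 1.75, interval 0.974 to 3.15 fold, adjusted p 0.212, edgeR). The GFP EtOH values rest on 251, 244 and 251 counts. Their SD of 0.143 CPM is smaller than counting error alone would give, so it is no measure of low variation between libraries. In GFP Dex the SD of GATA6 was 4.63 CPM. In dexamethasone GATA6 had 35.7 and 15.9 CPM in P300 Dex, against 24.9, 15.7 and 20.8 CPM in GFP Dex, and the groups overlapped. GATA6 shares exon bases with the antisense genes GATA6-AS1 and AC091588.3, which had at most 10 and 20 counts in any library.

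FOXA1 had 9.65 and 80.9 CPM in P300 EtOH, against 29.6, 42.5 and 33.3 CPM in GFP EtOH, and 23.5 and 47.5 CPM in P300 Dex, against 31.6, 19.4 and 36.1 CPM in GFP Dex. In ethanol the P300 values were the lowest and the highest of all 10 libraries. Within number 1 the log2 difference of P300 from GFP was -1.60 in ethanol and -0.43 in dexamethasone, and within number 2 it was 0.93 and 1.29. The fitted log2 fold changes were 0.34 ± 0.67 and 0.29 ± 0.66 (SE, adjusted p 0.787 and 0.906, edgeR). TTC6, on the opposite strand, shares exon bases with FOXA1 and had up to 219 counts, and the strand setting of the counting is not given in the sources used here.

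**Figure D3:**
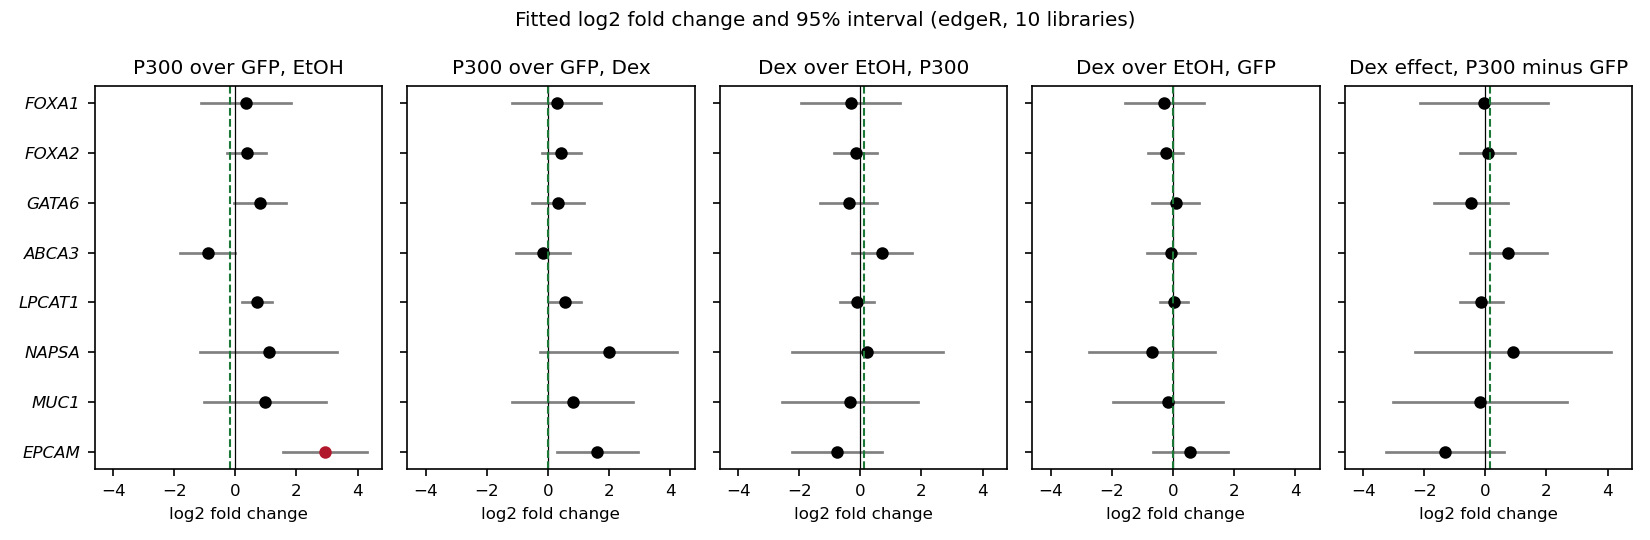
Fitted log2 fold change (points, horizontal axis) with its 95% interval (lines) for each gene (vertical axis) in 5 comparisons: P300 over GFP in EtOH and in Dex, Dex over EtOH in P300 and in GFP cells, and the difference between the Dex effects. Red marks an adjusted p under 0.05, the dashed line is the median of all 19433 tested genes, and EPCAM in EtOH at 2.93 is the only red point.

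Read as a list, 7 of the 8 genes had a log2 fold change above 0 for P300 over GFP in ethanol, with a median of 0.76, beside 42.9% above 0 and a median of -0.18 over all tested genes. In dexamethasone it was again 7 of 8 with a median of 0.51, beside 49.9% and a median of -0.0021 over all tested genes. Not all 7 were higher in each P300 library. In ethanol FOXA1, MUC1 and NAPSA differed from GFP in opposite directions within numbers 1 and 2, as did FOXA1 and MUC1 in dexamethasone. With the replicate block among the libraries compared, and GFP EtOH 3 left out, FOXA1 and NAPSA were below 0 in ethanol (log2 -0.23 and -0.020). The 8 genes were chosen with earlier results known, so these shares do not test a shared rise. With size factors in place of TMM the all-gene median in ethanol was -0.04, so the shift of -0.18 depends on the scaling. In ethanol 4 genes lay wholly above GFP (EPCAM, FOXA2, GATA6 and LPCAT1) and 1 wholly below (ABCA3), where 12.2% of all tested genes lay above and 28.5% below. In dexamethasone EPCAM, FOXA2, LPCAT1 and NAPSA lay wholly above GFP, where 14.9% of all genes did. EPCAM, FOXA2 and LPCAT1 did so in both treatments, where 1019 of 19433 genes did (5.24%).

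Dexamethasone for 1 h moved none of the 8 genes past the threshold. In GFP cells 0 of 19433 genes were called (0%) by edgeR, 113 (0.581%) had an unadjusted p under 0.05 and DESeq2 called 5 (0.0257%), and FKBP5 itself did not pass (log2 1.55, adjusted p 1). With only the 6 GFP libraries and the number as a block, 277 of 16697 genes passed (1.66%), and none of the 8 genes was among them. The largest GFP effects of the 8 were -0.67 ± 0.94 for NAPSA and 0.57 ± 0.56 for EPCAM (log2, SE). LPCAT1, the most evenly measured, had a Dex over EtOH fold of 1.02 in GFP cells with an interval of 0.747 to 1.39 fold.

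In P300 cells 0 of 19433 genes were called for dexamethasone (0%) by edgeR, 2569 (13.2%) had an unadjusted p under 0.05 and DESeq2 called 489 (2.52%), and the all-gene median was 0.13. EPCAM and FOXA2 lay wholly lower in P300 Dex than in P300 EtOH, as 7.56% of all genes did. The log2 fold changes were -0.75 ± 0.67 for EPCAM and -0.16 ± 0.32 for FOXA2 (SE, adjusted p 0.727 and 0.910, edgeR). ABCA3 had 38.5 and 101.4 CPM in P300 Dex, against 30.9 and 55.9 CPM in P300 EtOH, higher within each number (log2 0.31 and 0.86) but with overlapping groups and a fitted 0.70 ± 0.45 (adjusted p 0.566, edgeR).

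The test of the difference between the Dex effects in P300 and GFP cells called 0 of 19433 genes (0%) by edgeR, with 1697 (8.73%) at an unadjusted p under 0.05 and 125 (0.643%) called by DESeq2. The all-gene median of that difference was 0.14. Among the 8 genes it was lowest for EPCAM (log2 -1.32 ± 0.87 SE, adjusted p 0.788) and highest for NAPSA (0.90 ± 1.46, adjusted p 0.968, edgeR). The Dex comparisons and the P300 comparisons draw on the same libraries, so their values are not independent of each other.

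The genes next to these 8 in each pathway gave few calls between P300 EtOH and GFP EtOH. Of 11 tested alveolar type 2 markers none passed, with 7 above 0 and a median log2 of 0.62, and the highest in level, the lysosomal protein LAMP3, had -0.27 ± 0.40 (SE). Among those above 0, SFTPC, SFTPD, SLC34A2 and DMBT1 lay under 1 CPM in every GFP EtOH library and had no read in P300 EtOH 2. Over all tested genes with a GFP EtOH mean under 1 CPM the median log2 was 1.23. Of 13 tested phosphatidylcholine enzymes and transporters none passed and 3 were above 0 (median -0.26). The highest in level, PRDX6, had -0.26 ± 0.28, CHKA had -0.58 ± 0.39 and SLC44A1 had -0.73 ± 0.31. PCYT1A, the rate-limiting enzyme of phosphatidylcholine synthesis, was among those above 0, at 0.55 ± 0.30. The acyltransferases related to LPCAT1 had -3.05 ± 1.23 (LPCAT2, adjusted p 0.150), -1.12 ± 0.34 (LPCAT3, adjusted p 0.0879) and 0.12 ± 0.48 (LPCAT4, adjusted p 0.899, edgeR). LPCAT2 was low in every library, at 0 and 1.34 CPM in P300 EtOH, against 2.31 to 4.97 CPM in GFP EtOH.

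Of 9 tested ABCA transporters other than ABCA3 none passed and 5 were above 0 (median 0.73), with ABCA1, the cholesterol exporter, at 0.73 ± 0.53. Once the number was added as a block to the fit of 10 libraries, ABCA7 passed (log2 1.07 ± 0.22 SE, adjusted p 0.0427, against 0.159 without the block, edgeR). Of 11 tested lysosomal and aspartic proteases none passed and 7 were above 0 (median 0.09), with CTSB at 0.82 ± 0.29. Of 7 tested transmembrane mucins none passed and 6 were above 0 (median 0.59), with MUC16 at 0.46 ± 1.05 and MUC13 at -0.42 ± 0.42.

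Of 22 tested endoderm and lung transcription factors none passed and 13 were above 0 (median 0.08), with ELF3 at 0.10 ± 0.42, KLF5 at 0.05 ± 0.28 and SOX9 at 0.57 ± 0.34. The 4 other tested GATA factors were all below 0 (median -1.07) and none passed, with GATA3 at -0.30 ± 0.56. That median rests on genes with few reads. GATA5 had 0 CPM in both P300 EtOH libraries, against 0.0764 to 0.765 CPM in GFP EtOH. GATA4 had 0 and 4.47 CPM in P300 EtOH, against 2.60 to 3.58 CPM in GFP EtOH. For GATA2 the values were 3.55 and 0.447 CPM, against 4.36 to 7.49 CPM. Of 15 tested general epithelial genes besides EPCAM none passed and 6 were above 0 (median -0.31), with KRT8 at -0.62 ± 0.46, KRT18 at -0.41 ± 0.53 and KRT7 at -1.06 ± 0.43 (all log2, SE).

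Markers of other cell types also held genes that rose beside EPCAM in P300 EtOH. SNAI1, a repressor of epithelial genes, rose (log2 2.34 ± 0.55 SE, adjusted p 0.0472, edgeR), the only call among 15 tested mesenchymal genes, of which 13 were above 0 (median 1.06). KRT15 and NGFR rose among 5 tested basal cell genes (log2 2.16 and 3.82, adjusted p 0.0488 and 0.0267), LGALS4 among 6 genes of other endodermal organs (3.93, adjusted p 0.0267) and VWF among 4 tested endothelial genes (3.83, adjusted p 0.0479, all edgeR). Of the basal genes 4 were above 0, and TP63 lay below (log2 -2.56 ± 0.85 SE, adjusted p 0.0999, edgeR). TP63 had 1.22 and 0 CPM in P300 EtOH, against 3.90, 6.69 and 3.67 CPM in GFP EtOH. Over all tested genes with a GFP EtOH mean under 1 CPM the median log2 was 1.23. COL1A2, COL3A1, PDGFRB, DCN and LUM lay under 1 CPM in every GFP EtOH library and had no read in P300 EtOH 2. VWF, TEK and KRT5 lay under 1 CPM in those GFP libraries too. Once the number entered the fit of 10 libraries as a block, the calls of SNAI1, KRT15 and VWF were lost (adjusted p 0.0698, 0.0520 and 0.0845, edgeR), and those of NGFR and LGALS4 were kept (0.0315 and 0.0393). COL1A1, a collagen chain among the mesenchymal genes, then passed (log2 1.52 ± 0.28 SE, adjusted p 0.0393, against 0.0616 without the block, edgeR). Summed CPM of the endothelial list was 6.88 and 27.3 in P300 EtOH, against 1.22 to 3.50 in GFP EtOH (4 of 6 genes in the table, CLDN5 at 0 in P300 EtOH 1 and TEK at 0 in P300 EtOH 2), and of the basal list 71.2 and 114, against 17.1 to 25.01 (5 of 7 genes in the table, KRT5, KRT14 and TP63 at 0 in P300 EtOH 2). The part of these markers in the EPCAM result was not tested.

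No gene was called among 6 tested alveolar type 1 markers (1 above 0, median -0.38), 5 airway secretory (3 above 0, 0.20), 8 ciliated (5 above 0, 0.84) and 3 leukocyte markers (2 above 0, 0.53). In dexamethasone no gene of any of these lists was called for P300 over GFP.

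**Figure D4:**
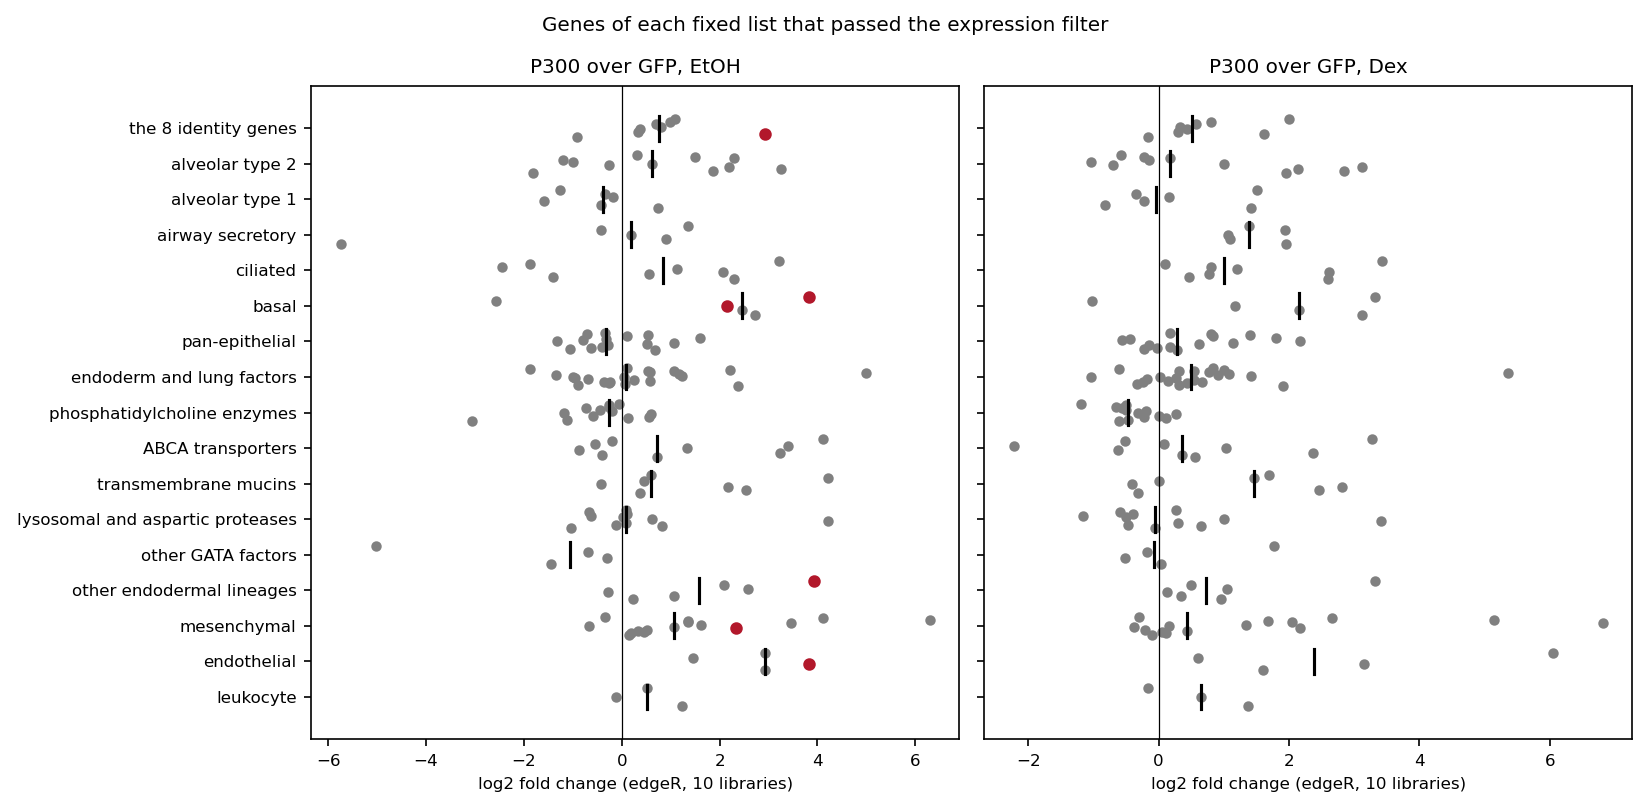
Fitted log2 fold change of P300 over GFP (horizontal axis) in EtOH (left) and Dex (right) for the tested genes of each list (vertical axis), with 1 point per gene, a black bar at the list's median and red for an adjusted p under 0.05. In EtOH red points appear for EPCAM, KRT15, NGFR, LGALS4, SNAI1 and VWF, and in Dex there is none.

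The genes whose log2 CPM profile over the 10 libraries was most like each of the 8 were picked among 9540 tested genes with a mean of at least 10 CPM, by Pearson correlation. The nearest were WDR60 and PLXNA2 for EPCAM, KIAA1683 and TUBB4A for LPCAT1, GPS1 and MYBL2 for ABCA3, ZFAND2B and DNM3 for NAPSA, ITGA5 and PLCXD2 for GATA6, LSM4 and MLLT11 for FOXA1, FAM193B and KLF13 for MUC1, and MIDN and FBXL18 for FOXA2. None of the 8 had another of the 8 as its nearest gene, though EPCAM and NAPSA, with means of 6.11 and 1.86 CPM, could not be picked. This does not tell whether the 8 resemble each other. Between members r ran from -0.894 (ABCA3 with GATA6) to 0.921 (EPCAM with LPCAT1). These likenesses are a description over libraries that share construct, replicate number and depth, and the best of 9540 genes is high by its choice.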

How the data were processed

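The data are a table of RNA-seq read counts per gene for 10 libraries, as deposited by the authors, with 10 further per-sample columns of normalized counts that were not used. Per the submitters' processing notes the tools were cutadapt, STAR 2.4.2a, HTSeq 0.6.1p1 and DESeq2 1.10.1 with GRCh37. For the gene annotation and the strand setting, nothing is given in the sources used here. Per the labels' protocols, 2 library kits are named, a stranded total RNA kit and an mRNA kit, and which kit made these libraries is not given.

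Genes were tested with edgeR 4.0.16 in R 4.3.3 (filterByExpr, TMM, glmQLFit and glmQLFTest, 2-sided, 1 mean for each of the 4 groups, Benjamini-Hochberg over 19433 genes, threshold 0.05). CPM are counts per 1000000 on TMM-scaled library sizes, and log2 CPM used a prior count of 2. A count of 0 allows up to 3 counts, and intervals on reads are exact (Clopper-Pearson) 95% intervals for counting error only. Intervals on fold changes used the fit's t quantile. Exon lengths came from GENCODE 29 and upstream sequences from RefSeq (GRCh38.p14), matched by symbol, and no read was placed by their coordinates. The fit was tested on simulated counts with known changes.

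Group and number came from the sample titles. Over 13 pairs of libraries with the same number, deviations from the group means correlated at 0.113 to 0.601, against -0.484 to 0.24 for 24 pairs of different numbers. In a group of 2 libraries the deviations mirror each other, so these values are not separate and part of the split is built in. Pairs of number 1 with number 3 gave 0.0292 to 0.24, and pairs of number 2 with another number were all below 0. The values thus set number 2 apart more clearly than they separate numbers 1 and 3. The numbers were still taken to pair the libraries in the within-number differences and the fits with a replicate block. This rests on the data and not on a stated culture or day. The main fit used the groups only and did not pair the libraries. No pair of libraries of a group was alike within sampling noise (chi-square per degree of freedom 9.47 to 267).

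The 8 genes and all gene lists were chosen with earlier results of these data known. Named genes were all 8, of each list the genes called and otherwise up to 4 of the highest level, and for each of the 8 the 2 most alike genes. SFTPB, SFTPC, SFTPD, CDH1, CLDN7, GRHL2, ST14, SPINT1, RAB25, LPCAT2, LPCAT3, LPCAT4, ABCA7, COL1A1 and the genes that followed the replicate number were named outside that rule. So were SPINT2, KRT19 and the genes named because they were low or had no read. Alternatives were size factors (RLE), DESeq2 1.42.0, no filter, a filter of 5 CPM in 2 libraries, the replicate block, only the libraries compared with and without the block, EP300 removed, and each library left out in turn.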

Additional observations from a re-analysis of the deposited data

Results flagged for a closer look

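EPCAM had opposite signs for dexamethasone under the 2 constructs, but number 1 of the P300 cells barely differed. Within numbers 1 and 2 of the P300 cells the log2 difference of Dex from EtOH was -0.09 and -1.35, and within numbers 1, 2 and 3 of the GFP cells it was 0.84, 0.20 and 0.82. The test of the difference itself gave a log2 of -1.32 with an adjusted p of 0.788 (edgeR, 10 libraries), so it did not pass. In GFP cells the EPCAM values rest on 12 to 51 counts per library. In P300 cells they rest on 97 (EtOH) and 96 (Dex) counts in number 1. In number 2 they rest on 42 counts in the shallow EtOH library and 67 in Dex, where EP300 took 13.4% and 2.42% of counts.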

How the results depend on the processing

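The 8 genes gave 40 fold changes, and most of their alternative values kept the direction and the side of the threshold (645 of 699, with 44 turned in sign). The calls that changed were the EPCAM call for P300 in ethanol, lost in 9 of 18 alternatives, and the LPCAT1 call gained there with DESeq2. Counts of called genes moved more. With DESeq2 they were 2409 for P300 in ethanol, 702 for P300 in dexamethasone, 489 for Dex in P300 cells, 5 for Dex in GFP cells and 125 for the difference between the Dex effects, against 541, 2, 0, 0 and 0 with edgeR. With only the libraries compared they were 49 for P300 in ethanol, 0 for P300 in dexamethasone and 7 for Dex in GFP cells, and with the replicate block added 276, 194 and 277, and 6 for Dex in P300 cells. These block fits used only numbers present in both groups, so those of P300 over GFP left out the GFP library of number 3. P300 in dexamethasone gave 14 calls with no filter and 1 with EP300 removed. Leaving out each library in turn gave 0 to 4187 calls for P300 in ethanol, 0 to 499 for P300 in dexamethasone, 0 to 2394 for Dex in P300 cells and 0 to 1407 for the difference, where a lone P300 library is assumed to vary like the other groups. The causes were not tested. Signs turned as follows (log2, none past the threshold). With the replicate block in the fit of 10 libraries MUC1 was -0.064 for P300 in dexamethasone and 0.045 for Dex in GFP cells, and FOXA1 was 0.095 for the difference. With the block among the libraries compared FOXA1 was -0.23 for P300 in ethanol and 0.22 for Dex in P300 cells, and NAPSA was -0.020 for P300 in ethanol. With EP300 removed LPCAT1 was -0.0030 for Dex in GFP cells, and FOXA1 and MUC1 were 0.14 and 0.017 for the difference. Leaving out 1 library at a time, P300 in ethanol ran from -1.93 to 1.18 for FOXA1, -1.48 to 1.84 for MUC1 and -6.92 to 1.87 for NAPSA, the low end of NAPSA set by a library with 0 counts. P300 in dexamethasone ran from -1.09 to 0.35 for ABCA3, -0.37 to 0.69 for FOXA1, -0.38 to 0.74 for GATA6 and -1.12 to 1.58 for MUC1. Dex in P300 cells ran from -0.18 to 1.26 for ABCA3, -1.19 to 1.91 for FOXA1, -1.05 to 0.065 for GATA6, -0.25 to 0.046 for LPCAT1, -2.23 to 2.11 for MUC1 and -0.59 to 8.21 for NAPSA. Dex in GFP cells ran from -0.15 to 0.060 for ABCA3, -0.068 to 0.26 for GATA6 and -0.53 to 0.60 for MUC1. The difference ran from -0.13 to 1.31 for ABCA3, -0.92 to 2.19 for FOXA1, -0.13 to 0.19 for FOXA2, -0.29 to 0.016 for LPCAT1 and -2.07 to 2.27 for MUC1. NAPSA did not pass the filter of 5 CPM, and the difference was not run with only the libraries compared. Depth limits NAPSA in every library and EPCAM in GFP libraries. In P300 EtOH 2 the low depth widens the counting error of every gene, most for low ones. There NAPSA had 0 counts and EPCAM 42, against 529 for LPCAT1.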

Other observations

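Some secretory and liver-type genes separated the libraries by replicate number as MUC1 did. All 4 number 2 libraries lay above the other 6 for 3 of 5 tested airway secretory genes (MUC5AC, MUC5B and SPDEF, but not BPIFB1 or CYP2F1) and for 2 of 6 tested genes of other endodermal organs (FGA and FGB, but not ALB, VIL1, TFF1 or LGALS4). Over all 19433 tested genes this held for 910 (4.68%), while 1418 (7.3%) lay below in all 4. It also held for 4 of 22 endoderm and lung factors, 3 of 15 general epithelial genes and 2 of 9 ABCA transporters. It held for 0 of 11 alveolar type 2, 0 of 8 ciliated and 0 of 5 basal genes. MUC5B, a secreted airway mucin, had 8944 CPM in P300 Dex 2, 5808 in P300 EtOH 2, 4588 in GFP Dex 2 and 6457 in GFP EtOH 2, against 541 to 1379 CPM in the other 6 libraries. MUC5AC, the goblet cell mucin, had 254 to 538 CPM in the number 2 libraries and 59.6 to 86.4 CPM in the others. SPDEF, a goblet cell transcription factor, had 18.6 to 52.3 CPM and 4.63 to 7.14 CPM in the same order. The fibrinogen chain FGA, made mostly by hepatocytes, had 81.4 to 199.9 CPM in number 2 libraries and 15.4 to 41.8 CPM in the others. These genes were named after their values were seen, and the values are given with no test. What a replicate number stands for is not given in the labels.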
